A study of Mus musculus with 48 samples.

Results

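The genes examined were 9 genes of myelin and of the oligodendrocyte, the glial cell that builds it: Mbp, Mog, Mag, Mobp, Cnp, Cldn11, Ugt8a, Ermn and Opalin. They were found by the gene name that the array annotation gives, which returned 14 probes, 3 each for Mbp and Mobp, 2 for Ermn and 1 for each of the other 6 genes, of the 55681 probes of the array. All 14 were detected on all 24 arrays of the medial prefrontal cortex (mPFC), as were 28360 probes of the whole array.

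The study compared female C57BL/6J mice in a 2 by 2 design of ovariectomy (OVX), a model of the loss of ovarian hormones, and chronic ultra-mild stress (CUMS), a schedule of weak unpredictable stressors that lasted several weeks. The 6 control mice had a sham operation and no stress, the 6 CUMS mice a sham operation and stress, the 6 OVX mice had the ovaries removed and no stress, and the 6 OVX+CUMS mice had both. All 24 mice, controls included, had an operation as young adults and were 17 weeks old when blood and mPFC were taken under pentobarbital anesthesia, the mPFC by dissection from coronal slices. RNA of each mouse and tissue was hybridized to 1 one-color Agilent array.

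The 75th percentile of the processed signal was 572 to 689 on the mPFC arrays, 31592 to 38072 probes were well above background, and no spot was saturated. Neuron markers were well expressed in the dissected tissue, with a mean normalized log2 value of the list of 5.14 to 5.36, and 7 of 7 striatum markers were detected as well, with a list mean of 0.20 to 0.67 on the same scale. Each of 3 slides carried 8 of these arrays. The 6 control mice and CUMS mice 1 and 2 were on slide 1. Slide 2 held CUMS mice 3 to 6 and OVX mice 1 to 4, and slide 3 held OVX mice 5 and 6 and the 6 OVX+CUMS mice. Control mice shared no slide with OVX mice or with OVX+CUMS mice, and CUMS mice shared none with OVX+CUMS mice. With the slide as a block in the model, 0 of 28360 probes passed the test in any of the 6 comparisons that span slides (limma with Benjamini-Hochberg adjustment), and 649 (the interaction) to 2083 (the CUMS effect) had an unadjusted p under 0.05.

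Myelin is the stack of oligodendrocyte membrane that wraps axons and speeds conduction. Its compact part is held together by basic proteins (Mbp, Mobp), its lipids are rich in galactosylceramide made by the enzyme of Ugt8a, and its edges are sealed by the tight junction protein of Cldn11. Oligodendrocyte genes are switched on together as precursor cells mature, under transcription factors such as Olig2, Sox10 and Myrf. In dissected tissue, fewer oligodendrocytes and less RNA per oligodendrocyte cannot be told apart.

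The probes are 60 bases long, and their positions in the array design are given on the mouse genome build mm9, and exons, introns and untranslated regions were not assigned. Cldn11 was read at 3:31062922-31062981, Cnp at 11:100442617-100442676, Mag at 7:31684202-31684261, Mog at 17:37148277-37148336 and Ugt8a at 3:125568995-125569054. The Mobp probes A_51_P291224, A_55_P1958793 and A_55_P1958798 lie at 9:120077006-120077065, 9:120078400-120078459 and 9:120085150-120085209, and the first 2 were designed to transcript variant 3 and the last to variant 1. Opalin A_52_P624415 (19:41138452-41141030) spans 2579 bases of genome, so it crosses an intron. The Ermn probes lie at 2:57897554-57897613 (A_55_P2060158) and 2:57900470-57900529 (A_55_P2136752).

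The sequences of 2 probes are shown because the probes behaved differently. The Opalin probe followed the other myelin genes from mouse to mouse and this Ermn probe followed them less closely, as described further on. Capitals mark a run of 7 GAA units, 21 of the 60 bases, in the Ermn probe. None of the other 13 probes held more than 1 such unit in a row.
Opalin A_52_P624415: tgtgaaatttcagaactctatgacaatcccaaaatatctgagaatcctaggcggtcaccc
Ermn A_55_P2136752: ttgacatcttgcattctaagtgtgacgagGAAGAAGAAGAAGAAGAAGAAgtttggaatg

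Because most of the members moved together, the 250 bases before the annotated start were read from RefSeq promoters (build GRCm38) for the 8 genes that the table holds, which does not include Mbp, as 10 windows. The windows were searched on both strands for CAGCTG (bound by basic helix-loop-helix factors such as Olig2), ACAAAG and ACAATG (Sox factors such as Sox10), CTGGCAC and CTGGTAC (Myrf) and for the palindromic estrogen response element and glucocorticoid response element. ACAAAG was in the windows of 4 of the 8 genes (Cnp, Mag, Mobp and Opalin) and in 16.5% of all 32851 windows of this length. CTGGCAC was in those of 2 genes (Cnp and Mag) and in 4.19% of all windows, CTGGTAC in that of Mog and in 1.83% of all, and ACAATG in that of Ermn and in 3512 of the 32851. CAGCTG (13% of all windows), the estrogen response element (0.0639%) and the glucocorticoid response element (0.387%) had no match in any of the 10 windows. The 4 windows below are those of the 3 genes with a Myrf match, with the most upstream of the Mag windows, and that of Mobp, which held 6 matches to ACAAAG on the opposite strand, and capitals mark the matches on either strand. They lie at 11:100574689-100574938 on the plus strand (Cnp), 7:30914923-30915172 on the minus strand (Mag), 17:37023399-37023648 on the minus strand (Mog) and 9:120149492-120149741 on the plus strand (Mobp), and a match of letters is not a measured binding site.
Cnp: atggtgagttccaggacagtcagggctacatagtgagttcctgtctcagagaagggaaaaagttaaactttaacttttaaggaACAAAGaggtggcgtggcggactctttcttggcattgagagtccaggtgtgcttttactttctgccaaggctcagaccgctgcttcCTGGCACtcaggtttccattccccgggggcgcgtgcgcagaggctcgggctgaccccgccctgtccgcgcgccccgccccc
Mag: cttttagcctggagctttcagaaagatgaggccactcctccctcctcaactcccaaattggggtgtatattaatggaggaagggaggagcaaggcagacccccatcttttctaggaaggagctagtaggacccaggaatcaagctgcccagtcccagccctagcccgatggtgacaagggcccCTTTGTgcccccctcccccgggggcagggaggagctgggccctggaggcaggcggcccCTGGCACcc
Mog: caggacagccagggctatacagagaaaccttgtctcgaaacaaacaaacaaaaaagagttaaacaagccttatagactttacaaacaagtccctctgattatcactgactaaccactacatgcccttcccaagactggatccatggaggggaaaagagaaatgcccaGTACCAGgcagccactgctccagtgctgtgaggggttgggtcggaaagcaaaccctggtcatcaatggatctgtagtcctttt
Mobp: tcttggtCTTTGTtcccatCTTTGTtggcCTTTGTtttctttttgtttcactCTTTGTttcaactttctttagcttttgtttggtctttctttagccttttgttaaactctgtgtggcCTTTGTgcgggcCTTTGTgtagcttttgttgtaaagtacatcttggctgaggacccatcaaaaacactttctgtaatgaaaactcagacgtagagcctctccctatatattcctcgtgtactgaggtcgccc

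Values are log2 processed signals minus the 75th percentile of the array, so 0 is the level of that percentile and 1 unit is a doubling, and they are compared for 1 probe at a time. Differences between groups were tested with limma over all 28360 detected probes, and a probe was called when its Benjamini-Hochberg adjusted p was under 0.05. The main effect of OVX is the mean difference of the OVX and OVX+CUMS mice from the control and CUMS mice, and the main effect of CUMS is built in the same way.

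Mag, an adhesion protein of the innermost myelin layer, shows the pattern that most members shared. Its value ran 1.45 to 2.83 (median 1.71) among control mice, 1.48 to 2.09 (1.80) under CUMS, 1.69 to 3.15 (2.25) after OVX and 1.29 to 2.90 (1.89) after OVX with CUMS. Control mouse 1, OVX mouse 5 and OVX+CUMS mice 1 and 3 were high, and OVX mice 1, 3 and 4 (2.11, 2.66 and 2.40) were also above all CUMS mice. The other control and OVX+CUMS mice and OVX mice 2 and 6 lay in or below the range of CUMS mice, so all 4 groups overlapped. The means differed from control mice by -0.11 under CUMS, 0.47 after OVX and 0.16 after OVX with CUMS, each with an SE of 0.28 (n = 6 per group), and none was called (adjusted p 0.82, 0.20 and 0.69, limma).

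Cnp, an enzyme of the cytoplasmic channels of myelin, was the only member called in the main effect of OVX. It ran 2.24 to 3.22 (median 2.49) among control mice, 2.32 to 2.64 (2.48) under CUMS, 2.59 to 3.53 (2.91) after OVX and 2.38 to 3.34 (2.69) after OVX with CUMS. The lowest OVX mouse was above all but 1 of the control mice, and OVX+CUMS mice overlapped all groups. The main effect of OVX was 0.37 with an SE of 0.12 (adjusted p = 0.027, limma), and it stayed called when each mouse was left out in turn (adjusted p 0.0065 to 0.050). It was lost under quantile normalization (adjusted p = 0.058), with the 75th percentile over detected probes (0.056), without the detection filter (0.059) and under a spike-in shift (a difference of 0.26, adjusted p = 0.22). With the slide as a block the difference was 0.38 with an SE of 0.29 (adjusted p = 0.87).

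**Figure D1:**
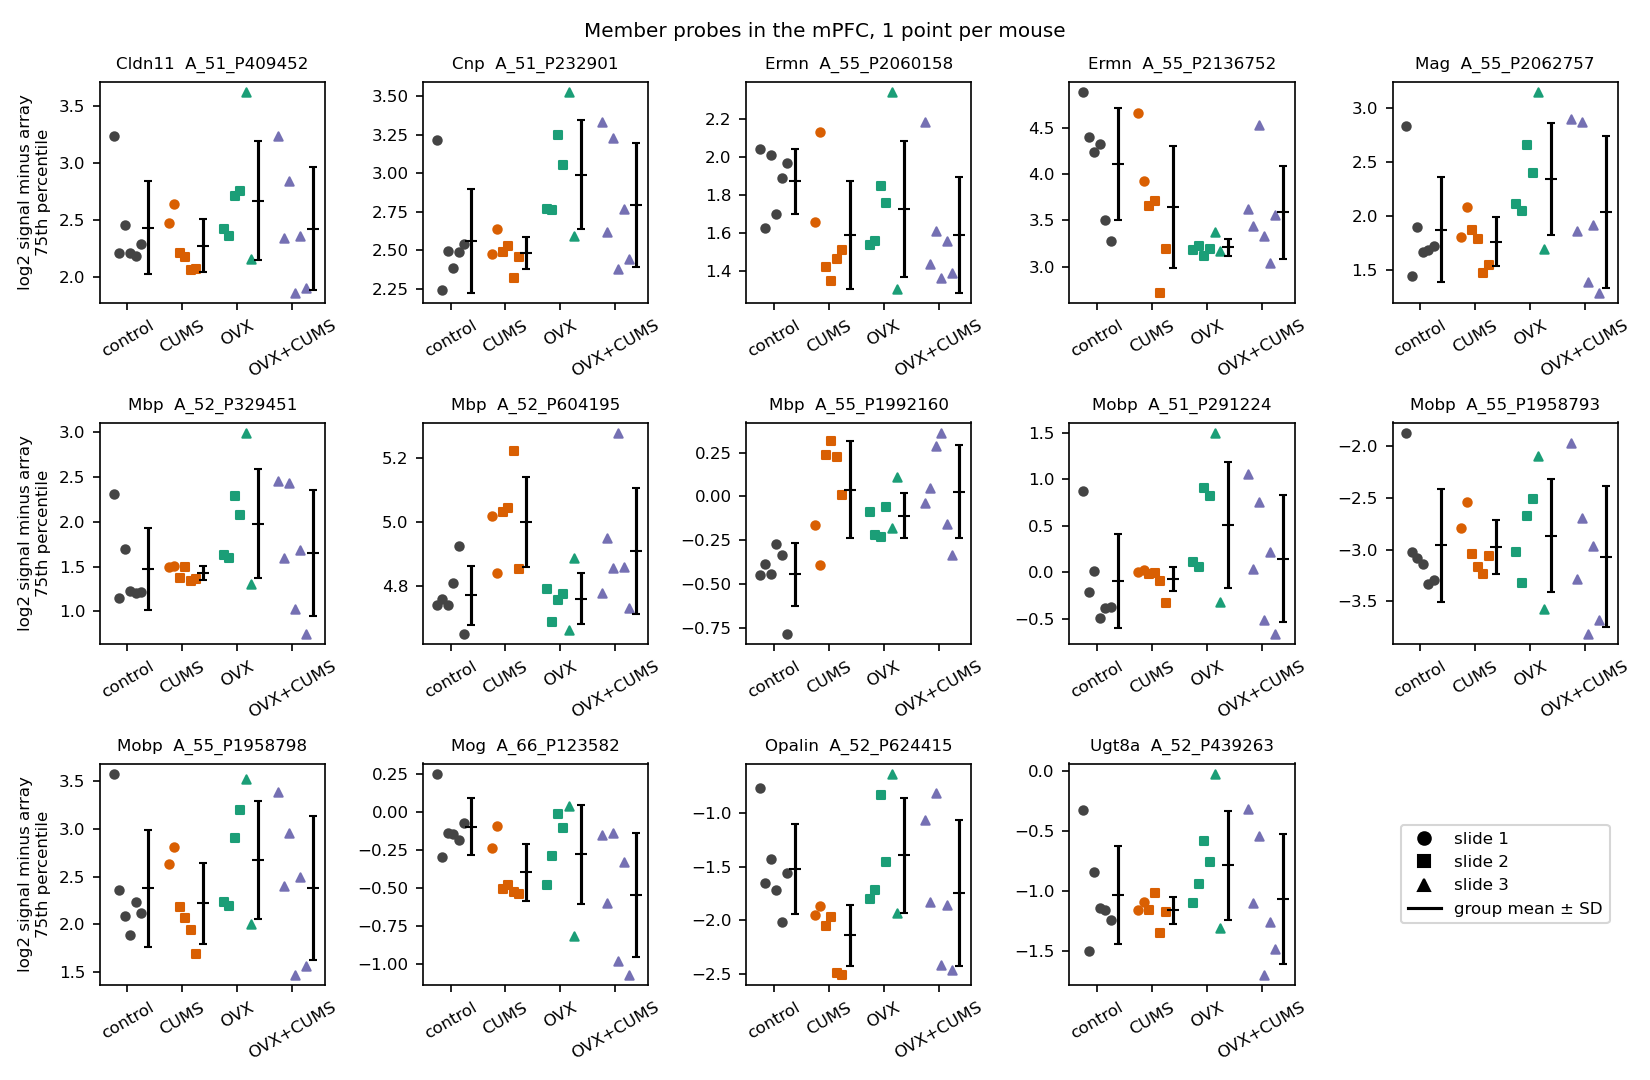
Normalized log2 signal of each member probe (vertical axes, 1 panel per probe) for the 6 mice of each group (horizontal axes), with the group mean ± SD in black and the slide as the shape of the point; axes differ between panels. Control mouse 1 stands above the other control mice for most probes, for example at 2.83 against 1.45 to 1.90 for Mag, and the 3 probes Mbp A_52_P604195, Mbp A_55_P1992160 and Ermn A_55_P2136752 look unlike the rest.

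Over the 14 probes, 1 was called higher and 0 lower in the main effect of OVX, against 30.9% of all detected probes called, 19.1% higher and 11.7% lower. The median difference of the 14 probes was 0.18 and that of all detected probes 0.04, with 9 probes above 0 and 5 below. In the main effect of CUMS 1 of 14 was called, Mbp A_55_P1992160, against 4.19% of all detected probes, 2.33% higher and 1.86% lower. That call was lost in 18 of the 24 fits that left out 1 mouse, and the count over all probes, 1189, ran from 224 (without CUMS mouse 6) to 3326 (without CUMS mouse 2). The median was -0.19 against 0.01 for all detected probes, with 12 of 14 probes below 0, and the member median was -0.09 without OVX mouse 5 and -0.10 without control mouse 1. Under the scalings tried the member median kept its sign in both main effects (0.07 to 0.18 for OVX, -0.32 to -0.18 for CUMS). In the interaction 0 of 14 were called, against 4.49% of all, 3.37% higher and 1.12% lower. By limma 1 of 14, Ermn A_55_P2136752, had an unadjusted p under 0.05 there, as did 6631 of all 28360.

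Mbp, the main basic protein of compact myelin, gave 2 different pictures by probe. The Mbp probe A_55_P1992160 lies upstream at 18:82691469-82691528 and was designed to transcript variant 7, A_52_P604195 at 18:82727929-82727988 to variant 8, and A_52_P329451 at 18:82742266-82744570 to variant 7. The last one spans 2305 bases of genome, so it crosses an intron. A_52_P329451, the most downstream of the 3, ran 1.15 to 2.31 (median 1.22) among control mice, 1.34 to 1.51 (1.43) under CUMS, 1.30 to 3.00 (1.85) after OVX and 0.75 to 2.45 (1.64) after OVX with CUMS. Like Mag, it was high in control mouse 1, OVX mouse 5 and OVX+CUMS mice 1 and 3, and no comparison was called.

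A_55_P1992160, the most upstream Mbp probe, ran -0.79 to -0.27 (median -0.41) among control mice, -0.39 to 0.32 (0.12) under CUMS, -0.23 to 0.11 (-0.14) after OVX and -0.34 to 0.37 (0.01) after OVX with CUMS. All 6 OVX mice were above all 6 control mice, and in both stressed groups 1 mouse reached down into the control range. It was higher than in control mice by 0.48 under CUMS, 0.33 after OVX and 0.47 after OVX with CUMS (SE 0.12, limma adjusted p 0.011, 0.039 and 0.0050). The exact two-sided permutation test gave p = 0.0087, 0.0022 and 0.0065, of which 0.0022 is the smallest that 6 against 6 allows. The CUMS mice on slide 2 were 0.48 above the CUMS mice on slide 1 for the same probe (adjusted p = 0.033, limma, n = 4 and 2). Other members called in that comparison were Mobp A_55_P1958798 (-0.75), Mobp A_55_P1958793 (-0.46), Cldn11 (-0.43) and Mog (-0.35), all lower on slide 2. Their adjusted p was 0.018 to 0.025 by limma, and 4601 of all 28360 detected probes were called there. Between the OVX mice of slides 3 and 2, 121 were called. Blocked by slide, the 3 differences of Mbp A_55_P1992160 from control mice were 0.17, -0.18 and -0.12, and none was called.

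A_52_P604195, the brightest Mbp probe, ran 4.65 to 4.92 (median 4.75) among control mice, 4.84 to 5.22 (5.02) under CUMS, 4.66 to 4.89 (4.76) after OVX and 4.73 to 5.28 (4.86) after OVX with CUMS. CUMS mice had the highest median and overlapped the control mice by a few values. They were 0.23 higher than control mice (SE 0.08, adjusted p = 0.044, limma), and the call was lost in 14 of the 24 fits that left out 1 mouse (adjusted p 0.050 to 0.13 in those, highest without CUMS mouse 5). With the slide as a block the difference was 0.16 with an SE of 0.11 (adjusted p = 0.95).

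Ermn encodes ermin, a protein of the oligodendrocyte cytoskeleton, and its 2 probes differed as well. A_55_P2136752 ran 3.27 to 4.89 (median 4.28) among control mice, 2.72 to 4.65 (3.68) under CUMS, 3.12 to 3.38 (3.18) after OVX and 3.04 to 4.52 (3.50) after OVX with CUMS. OVX mice lay close together, 5 of the 6 below the lowest control mouse, and 5 of the 6 control mice were above all of them. OVX mice were 0.90 below control mice (SE 0.28, adjusted p = 0.017, limma; exact permutation p = 0.0043), and the call was lost without control mouse 1, where the difference was -0.74 (adjusted p = 0.052). The value with the slide as a block was 0.04 with an SE of 0.48. The second probe, A_55_P2060158, ran from 1.62 to 2.04 (1.93) in control mice and 1.30 to 2.35 (1.66) in OVX mice, which overlapped, and its difference was -0.15 with an SE of 0.16 (adjusted p = 0.51, limma).

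Other probes with a GAA repeat moved with the Ermn probe shown above. After the group means were subtracted, all 44 other detected probes with at least 6 GAA units in a row had a Pearson r of 0.53 to 0.99 to Ermn A_55_P2136752 over the 24 mice (median 0.92). Of the 28359 detected probes other than this Ermn probe, the 44 included, 2752 had an r over 0.5, and the median r was -0.09. The 2 Ermn probes had an r of 0.19 to each other. Of the 44 repeat probes 27 were lower in OVX than in control mice, as were 10443 of all 28360 detected probes. The median difference of the 44 was -0.09, against 0.07 for all detected probes. It differed by the length of the repeat. Those with 6 or 7 units, where the Ermn probe holds 7, were all lower in OVX mice, with differences of -1.38 to -0.17. Longer repeats went both ways, from -0.59 (A_55_P2096127, 10 units) to 0.50 (A_55_P2171788, 15 units). The correlations describe arrays that also share the other properties of the mice. The part of the repeat in the difference between OVX and control mice was not tested.

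Mog, a surface protein of the outermost myelin layer, was the only member called lower after OVX with CUMS. It ran -0.30 to 0.25 (median -0.14) among control mice, -0.54 to -0.09 (-0.49) under CUMS, -0.82 to 0.04 (-0.20) after OVX and -1.07 to -0.14 (-0.47) after OVX with CUMS. The groups overlapped, with OVX+CUMS mice 4 and 6 lowest. The difference was -0.45 with an SE of 0.16 (adjusted p = 0.035, limma; exact permutation p = 0.030). It was no longer called without control mouse 1 or 6 or without OVX+CUMS mouse 2, 4 or 6 (-0.38, -0.44, -0.44, -0.36 and -0.34, adjusted p 0.055 to 0.097), and it was 0.07 with the slide as a block.

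Opalin, a membrane protein found almost only in oligodendrocytes, ran -2.01 to -0.76 (median -1.60) among control mice, -2.51 to -1.86 (-2.01) under CUMS, -1.94 to -0.63 (-1.58) after OVX and -2.47 to -0.81 (-1.85) after OVX with CUMS. CUMS mice were low, and only the lowest control mouse reached into their range. CUMS mice were 0.62 below control mice (SE 0.28), which was not called (adjusted p = 0.12, limma), and the exact permutation test gave p = 0.0087 unadjusted.

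Mobp, the second basic protein of compact myelin, was read by 3 probes that behaved alike, and none was called in any comparison. A_55_P1958798 ran 1.89 to 3.58 (median 2.17) among control mice, 1.69 to 2.81 (2.12) under CUMS, 2.00 to 3.52 (2.57) after OVX and 1.47 to 3.38 (2.45) after OVX with CUMS. The groups overlapped, with control mouse 1, OVX mouse 5 and OVX+CUMS mouse 1 highest in their groups. The differences of the 3 Mobp probes from control mice ran from -0.16 to 0.61, with SEs of 0.29 to 0.33.

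The lipid enzyme gene Ugt8a and the tight junction gene Cldn11 were not called in any comparison either. Ugt8a ran -1.50 to -0.33 (median -1.15) among control mice, -1.35 to -1.01 (-1.16) under CUMS, -1.31 to -0.02 (-0.85) after OVX and -1.70 to -0.32 (-1.18) after OVX with CUMS. Cldn11 ran from 2.18 to 3.24 (2.25), 2.06 to 2.64 (2.19), 2.15 to 3.63 (2.56) and 1.85 to 3.24 (2.35) in the same order. The groups overlapped for both genes, and CUMS mice had the narrowest range.

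Against control mice, 2 of 14 probes were called in CUMS mice (both higher, both Mbp), against 16.9% of all detected probes, 7.88% higher and 9.03% lower. In OVX mice 2 of 14 were called (Mbp A_55_P1992160 higher, Ermn A_55_P2136752 lower), against 33.5% of all, 20.2% higher and 13.4% lower. In OVX+CUMS mice 2 of 14 were called (the same Mbp probe higher, Mog lower), against 33.4% of all, 20.4% higher and 13% lower. Under a spike-in shift 0 were called higher and 3 lower there, Mbp A_55_P1992160 was at 0.23 (adjusted p = 0.21, limma) and the median over the 14 probes was -0.25. Groups without overlap were seen for 0 of 14 probes in CUMS mice (2.79% of all probes, 1.71% higher and 1.07% lower), for 1 of 14 in OVX mice, Mbp A_55_P1992160 (21.0% of all, 11.4% higher and 9.64% lower), and for 0 of 14 in OVX+CUMS mice (17.2% of all, 8.59% higher and 8.56% lower). The 3 comparisons share the 6 control mice. The medians over the 14 probes were -0.12, 0.24 and -0.0027, and those of all detected probes 0.03, 0.07 and 0.06. Without control mouse 1 the member medians were 0.07, 0.36 and 0.14, so that of CUMS mice turned its sign. Without OVX mouse 5 that of OVX mice was 0.07. That of OVX+CUMS mice ran from -0.18 (without OVX+CUMS mouse 1) to 0.14 (without control mouse 1) when each mouse was left out. Blocked by slide they were 0.09, 0.46 and 0.08. With each gene given by the mean of its probes, 0, 2 and 1 of the 9 genes were called.

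**Figure D2:**
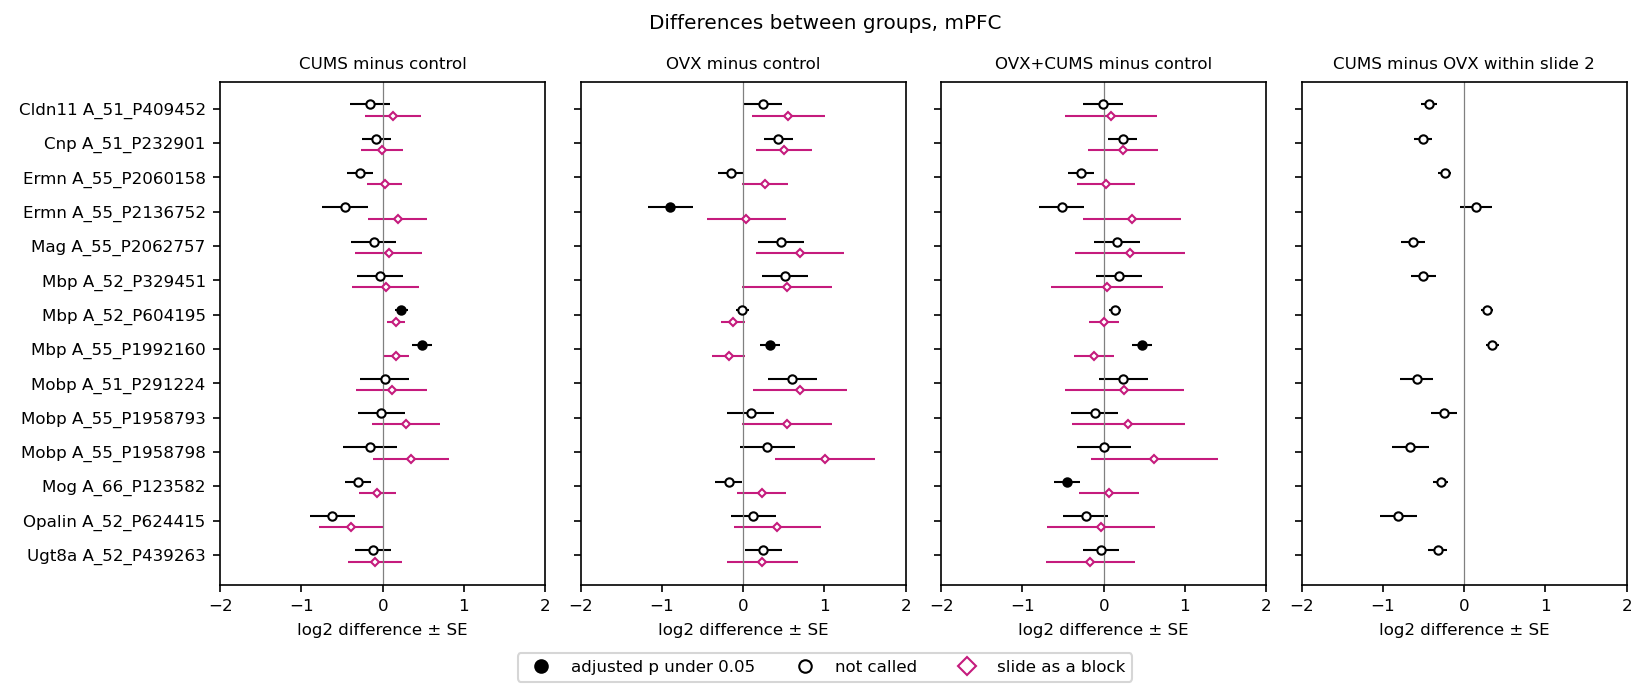
Difference in normalized log2 signal (horizontal axes) with its SE for the 14 probes (vertical axis) in 4 comparisons, from the limma fit (circles, filled where the adjusted p was under 0.05) and with the slide as a block (diamonds, none called). In CUMS mice only 2 Mbp probes are filled, and within slide 2 no probe is called and 11 of 14 differences lie below 0.

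CUMS and OVX mice shared slide 2, 4 of each, so these groups could be compared on 1 slide. There, 9 of the 14 probes were lower in all 4 CUMS mice than in all 4 OVX mice and 2 were higher in all 4, against 6.45% and 4.59% of all detected probes without overlap in those directions and 11% in either. Mag was 1.48 to 1.87 in the CUMS mice and 2.04 to 2.66 in the OVX mice, a difference of -0.63 (SE 0.15). The largest difference was that of Opalin, -0.81 (SE 0.23), followed by Mobp A_55_P1958798 with -0.66 and Mag.

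The 2 probes higher in the CUMS mice were Mbp A_52_P604195 (0.28, SE 0.07) and Mbp A_55_P1992160 (0.35, SE 0.08), while the downstream Mbp probe A_52_P329451 was lower (-0.50, SE 0.15). By limma 0 of 14 were called within the slide, against 0.0423% of all detected probes (0.0282% higher and 0.0141% lower), with adjusted p from 0.097 to 0.76, and 12 of 14 had an unadjusted p under 0.05, as did 4679 of all 28360. The exact permutation test gave p = 0.029, the smallest that 4 against 4 allows, for each of the 11 probes without overlap. The median over the 14 probes was -0.38 and over all detected probes -0.01, and leaving out each of the 8 mice kept it between -0.45 and -0.31. The probes rise and fall together from mouse to mouse, as described next, so they are not 14 separate observations.

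Beside this difference, 18 of 30 detected probes of other myelin genes were lower in all 4 CUMS mice and 1 was higher, with a median of -0.36. Of the striatum markers, 4 of 10 detected probes were lower in all 4 CUMS mice, and 3 of 8 deep layer probes were. By limma 1 striatum probe was called lower, as were 4 of all 28360. Of the upper layer probes 3 of 7 were higher, while none of the 14 astrocyte and 12 microglia probes was without overlap. Neuron probes had 2 of 11 higher and 2 lower, lipid probes 2 of 17 higher and 2 lower, and axon partners 2 of 16 higher. Transcription factor probes had 3 of 13 lower, precursor probes 1 of 14 lower and endothelium 1 of 8 higher. Of all detected probes 6.45% were lower and 4.59% higher without overlap. The part of the dissection in the difference between CUMS and OVX mice was not tested.

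On slide 1, CUMS mice 1 and 2 differed from the 6 control mice in none of 28360 probes by limma (1423 at an unadjusted p under 0.05), and the member differences ran from -0.39 (Opalin) to 0.34 (Mobp A_55_P1958798). On slide 3, the 6 OVX+CUMS mice differed from OVX mice 5 and 6 in none by the same test (583 unadjusted), with member differences from -0.49 (Mbp A_52_P329451) to 0.31 (Ermn A_55_P2136752) and SEs up to 0.56.

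The members varied more among mice of 1 group than most probes did. The SD within groups was 0.61 for Mobp A_55_P1958798, 0.55 for Mobp A_51_P291224, 0.52 for Mbp A_52_P329451 and 0.51 for Mag, and the median of all detected probes was 0.15. It was above the 94th percentile of all detected probes for 9 of the 14 probes. Mbp A_52_P604195 was near the middle, with an SD of 0.14 (percentile 44.8).

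This spread was shared. After subtraction of the group means, each probe was correlated over the 24 mice with the mean of the other genes, each gene given by its brightest probe. Pearson r was 0.97 for Mag (Spearman rho 0.94), 0.95 for Cldn11 (0.93), 0.95 for Mbp A_52_P329451 (0.93), 0.95 for Opalin (0.93), 0.94 for Cnp (0.87), 0.92 to 0.94 for the 3 Mobp probes, 0.92 for Ugt8a (0.88), 0.88 for Mog (0.87) and 0.79 for Ermn A_55_P2060158 (0.80). For each of these 11 probes the permutation p was 1e-05 for r and for rho, the smallest that 100000 permutations give, and 1.27e-05 after adjustment over the 14 relations. Without the 2 mice farthest from the median, r was 0.77 to 0.96. Within 1 slide (n = 8), after subtraction of the group means on that slide, r of the 11 probes was 0.54 to 0.98 on slide 1, 0.65 to 0.96 on slide 2 and 0.88 to 0.998 on slide 3.

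The 3 other probes departed from this. Ermn A_55_P2136752 had an r of 0.49 (rho 0.49, permutation p 0.016 and 0.017, adjusted 0.018 and 0.020), and 0.43 without the 2 farthest mice. Mbp A_52_P604195 had an r of -0.42 (rho -0.35, p 0.038 and 0.098, adjusted 0.041 and 0.10), and -0.42 without the 2 farthest mice. Mbp A_55_P1992160 had an r of -0.14 (rho -0.23, p 0.52 and 0.28, adjusted the same), and -0.13 without them. Within slides 1, 2 and 3 the r of Ermn A_55_P2136752 was 0.52, 0.30 and 0.52, that of Mbp A_52_P604195 was -0.21, -0.04 and -0.54, and that of Mbp A_55_P1992160 was -0.01, 0.22 and -0.03.

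Between probes, the 2 upstream Mbp probes had an r of 0.72 to each other, and of -0.32 (A_52_P604195) and -0.01 (A_55_P1992160) to the downstream Mbp probe. The 3 Mobp probes had r of 0.93 to 0.95 to each other. Over the 55 pairs of the 11 probes that remain without the 3 departing ones, which were set apart after their values were seen, r was 0.69 to 0.98 with a median of 0.90, and it was highest between Cnp and Mag.

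**Figure D3:**
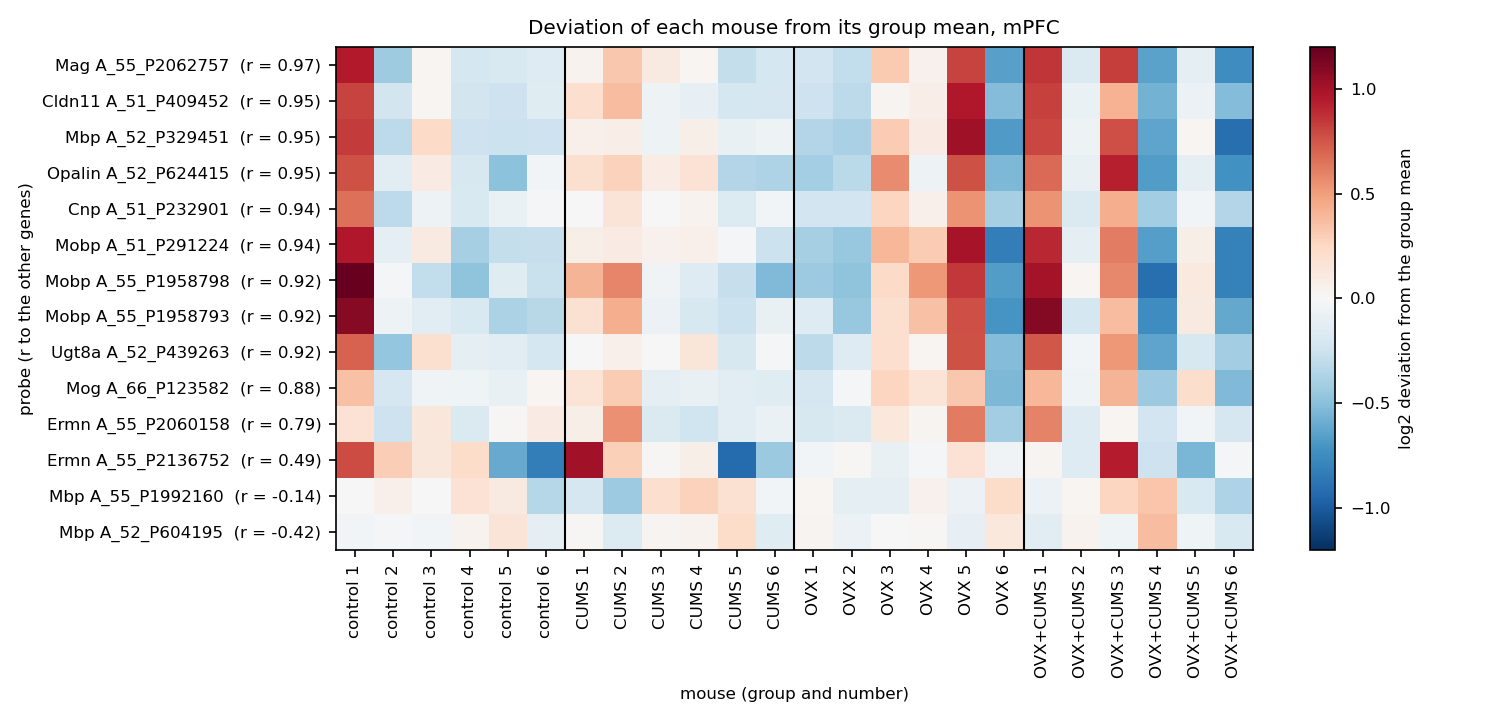
Deviation of each mouse (columns, by group and number) from its group mean in log2 units (color scale) for the 14 probes (rows, ordered by r to the other genes). Control 1, OVX 5, OVX+CUMS 1 and OVX+CUMS 3 are high and OVX 6, OVX+CUMS 4 and OVX+CUMS 6 are low in most of the upper 11 rows, whereas the lower 3 rows differ.

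The mean of the 9 genes by their brightest probes was 1.52 to 2.41 (median 1.57) among control mice, 1.26 to 1.77 (1.53) under CUMS, 1.38 to 2.36 (1.74) after OVX and 1.16 to 2.20 (1.56) after OVX with CUMS. It was highest in control mouse 1 (2.41) and OVX mouse 5 (2.36) and lowest in OVX+CUMS mice 6 (1.16) and 4 (1.18), and the groups overlapped. For Mbp and Ermn the brightest probes are A_52_P604195 and A_55_P2136752, which departed from the other members. With the mean of all probes of each gene, OVX mouse 5 (1.78) was above control mouse 1 (1.66). By the brightest probes the SD was 0.22 in CUMS mice and 0.35 to 0.46 in the other groups.

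Among the 10 probes whose pattern was most like this mean, out of all detected probes with a gene symbol, were those of Fa2h (r = 0.97), which makes the hydroxylated fatty acids of myelin lipids, and Plekhh1 (0.97). Gm10635, Trf (transferrin, by 2 probes), the transcription factor gene Nkx6-2, Tmem125, Prr18 and Galnt6 followed with r of 0.94 to 0.96. With the mean of all probes of a gene in place of the brightest one, 9 of the 10 probes were again in the first 10. The lowest r were those of Cnr1 (-0.93), which encodes a cannabinoid receptor, Grhl1 (-0.91), Tnfaip8l1 (-0.90), Smoc2 (-0.90) and Sec14l3 (-0.89). Over all 28360 detected probes the median r was -0.07, and 9 in 10 probes lay between -0.64 and 0.53. All points share the same 24 arrays, and no test was made of these values.

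Of the 24 detected genes of other myelin proteins, 24 had an r above 0 to the mean of the members and 18 an r above 0.8, with a median of 0.88, and the lowest was 0.16 for Ndrg1. The 9 detected oligodendrocyte transcription factor genes had a median of 0.40, with Nkx6-2 (0.95) and Sox10 (0.85) high and Olig2 (0.12) low. The enzymes of myelin lipids split, with 8 of 14 above 0 and a median of 0.15. Of these, Fa2h (0.97), Aspa (0.90), Gal3st1 (0.79) and Elovl1 (0.76) were high, and the cholesterol synthesis genes Hmgcs1 (-0.68) and Sqle (-0.54) were below 0. Of the genes of precursors and newly formed oligodendrocytes 4 of 11 were above 0, with a median of -0.08. Bcas1 (0.89) and Vcan (0.64) were highest, and Sox6 (0.04) and Bmp4 (0.03) were the others above 0. Below 0 were Lhfpl3 (-0.66), Ptprz1 (-0.51) and Pdgfra (-0.46), marker genes of precursors, and Gpr17, Cspg4, Neu4 and Itpr2 (-0.26 to -0.07). The mean of this list had an r of 0.04 to the mean of the members. The genes named in this paragraph were chosen after their values were seen.

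The mean of the 12 axon partner genes had an r of 0.73 to the mean of the members, and that of the neuron markers 0.45 and of the striatum markers 0.38. It was 0.08 for astrocytes, 0.09 for deep layers, 0.21 for choroid plexus, 0.23 for peripheral myelin, -0.23 for endothelium, -0.27 for upper layers and -0.31 for microglia. The part of the cell makeup of the dissected piece in the shared spread was not tested.

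**Figure D4:**
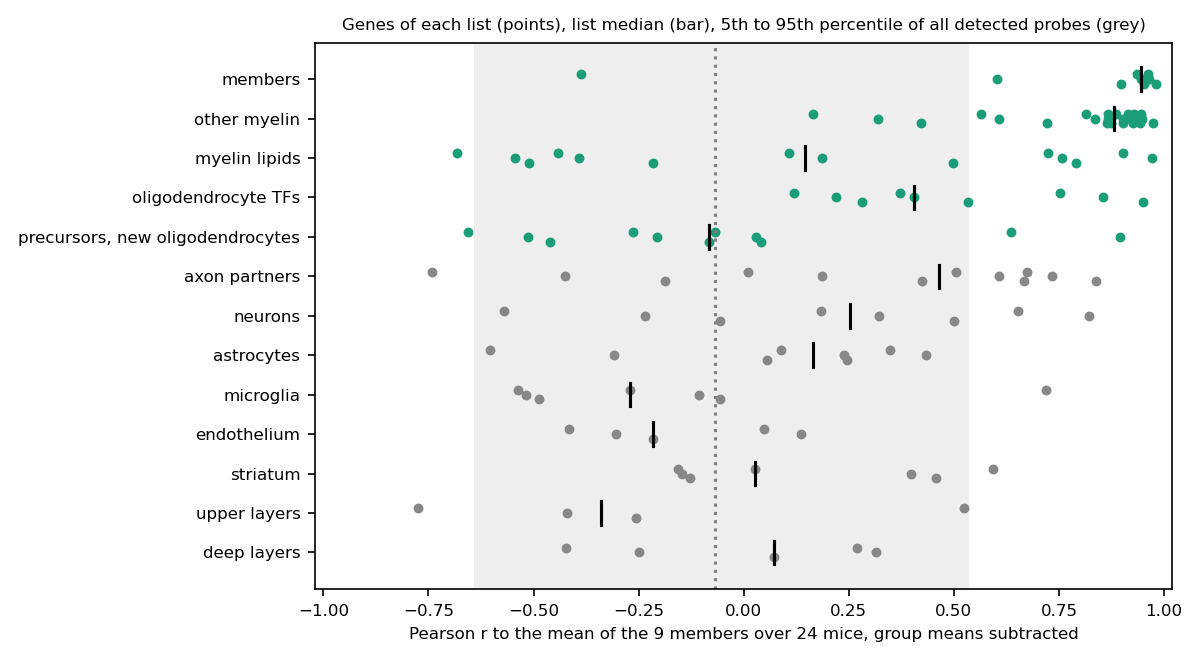
Pearson r of each gene (points) to the mean of the 9 members over 24 mice after subtraction of group means (horizontal axis), by gene list (vertical axis; oligodendrocyte lists in green), with the list median as a bar and the range of the middle 9 in 10 of all detected probes, -0.64 to 0.53, in grey, with a dotted line at their median. The other myelin genes sit at the right, with a median of 0.88. The lists in grey points each have genes on both sides of 0, with medians from -0.34 (upper layers) and -0.27 (microglia) to 0.46 (axon partners).

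Among the other genes of the oligodendrocyte, the main effect of OVX called 5 of 30 probes of other myelin genes higher and 0 lower (median 0.21), 3 of 13 transcription factor probes higher and 0 lower (0.13), 2 of 17 lipid probes higher and 0 lower (0.08) and 2 of 14 precursor and new oligodendrocyte probes higher and 1 lower (0.07). By the brightest probe of each gene, those called were Gpr37 (0.36, adjusted p = 0.014, limma), Pllp (0.33, 0.0022), Car2 (0.21, 0.014) and Sirt2 (0.17, 0.0029) of myelin, Sox10 (0.27, 0.0033) and Nkx2-2 (0.16, 0.018) of the transcription factors, Gal3st1 (0.23, 0.012), the sulfatide-making enzyme, and Bcas1 (0.36, 0.0499), Gpr17 (0.12, 0.047) and Vcan (-0.25, 0.00059). Counted in either direction, these shares were below the 30.9% of all detected probes. Of all detected probes 19.1% were called higher and 11.7% lower. The share called higher was above that for the transcription factors (3 of 13) and below it for the other lists. With the slide as a block none remained.

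The main effect of CUMS called 0 of 30, 0 of 13 and 0 of 17 of the first 3 lists and Gpr17 alone of the precursor and new oligodendrocyte list, against 4.19% of all detected probes. Gpr17, a receptor of cells about to become oligodendrocytes, was higher by 0.23 in that effect (adjusted p = 0.018, limma), by 0.12 in the main effect of OVX and by 0.35 in OVX+CUMS mice against control mice (adjusted p = 0.00029). OVX+CUMS mice also differed from control mice in Bmp4 (0.55, adjusted p = 0.039), Vcan (-0.34, 0.00067), Sox10 (0.26, 0.032) and Sirt2 (0.21, 0.0068) by limma. The counts in that comparison were 1 of 30 myelin, 1 of 13 transcription factor and 2 of 17 lipid probes higher and none lower, and 2 of 14 precursor probes higher and 1 lower, against 20.4% higher and 13% lower of all detected probes.

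For the genes that axons or other cells bring, OVX+CUMS mice against control mice had 5 of 16 axon partner probes higher, among them Cadm3 (0.35, adjusted p = 6.5e-05, limma), Nfasc (0.32, 0.0012) and Cntn1 (0.18, 0.017), and none lower. Of all detected probes 20.4% were called higher and 13% lower in this comparison. Neuron markers had 5 of 11 higher and 1 lower (Slc17a7 0.36, Camk2a 0.32, Gad1 -0.18, Rbfox3 0.16), microglia 8 of 12 higher and 1 lower (Tmem119 0.29, Cx3cr1 0.24, C1qa 0.24, Csf1r 0.22), astrocytes 3 of 14 higher (Fgfr3 0.26) and endothelium 1 of 8 higher. Upper layer genes had 3 of 7 higher (Cux2 0.33, Rasgrf2 0.27), striatum 1 of 10 higher (Drd2 0.46), choroid plexus 1 of 3 lower (Otx2 -0.37), peripheral myelin 1 of 3 lower and deep layers 0 of 8. Here, too, none was called with the slide as a block.

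In blood, taken from the same mice, the members fell into a detected and an undetected group of probes. Opalin, Mobp A_55_P1958793 and Mobp A_55_P1958798 were detected on 0 of 24 blood arrays and Ugt8a on 1, with median processed signals of 2.34, 2.55, 2.28 and 4.27, against 176, 74.5, 2869 and 285 in the mPFC. The other 10 probes were detected on 23 or 24 blood arrays. For Mbp A_52_P604195 the median signal was 1907 in blood and 17871 in the mPFC, for Cnp 1430 and 3801, and for Mog 218 and 517. For Mbp A_52_P329451 it was 31.9 in blood and 1786 in the mPFC. Signals of the tissues are not scaled to each other, and a signal in blood is given only as that of the probe.

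**Figure D5:**
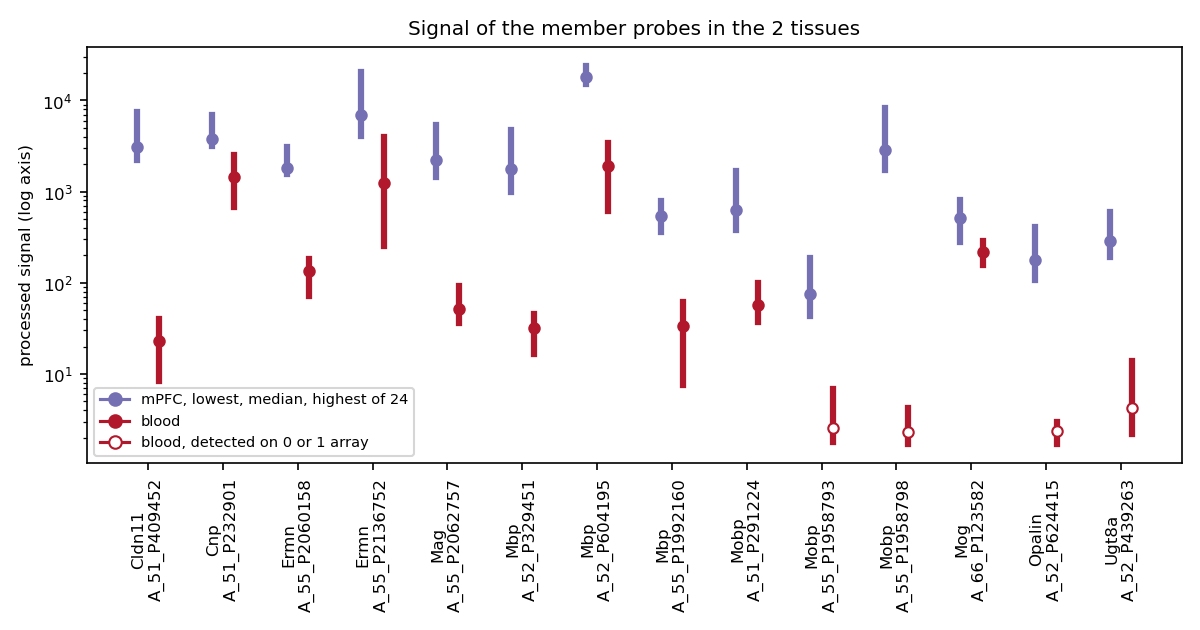
Processed signal of each member probe (log axis) on 24 mPFC and 24 blood arrays, with the lowest, median and highest array, and open points where the probe was detected on at most 1 blood array. Opalin, Ugt8a and 2 Mobp probes are near the bottom of the scale in blood, and Cnp, Mog, Ermn A_55_P2136752 and Mbp A_52_P604195 keep the highest signals there.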

How the data were processed

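RNA of the mPFC and blood of 24 mice was measured on 48 one-color arrays. Spot intensity was read and background-subtracted in Feature Extraction (version 10.7.3.1 in the headers) by the authors. They also deposited log2 values shifted to the 75th percentile of each array. After the median difference of each array was subtracted, these differed from those computed here by at most 0.001 for 100% of 55249 probes with 1 spot. Here, log2 intensity minus the 75th percentile of each array was used, without marked outlier spots (98 to 191 per mPFC array). A probe was detected when it was positive, significant and well above background on all 24 mPFC arrays, with a signal over 50 on at least 2. The number of arrays limits the precision. Replicates are separate mice.

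Groups came from the sample labels, where the label stress is the CUMS of the methods. Models were fitted with limma 3.58.1 in R 4.3.3 as group means with contrasts, and p-values, all two-sided, were adjusted by Benjamini-Hochberg over 28360 probes with a threshold of 0.05. Permutation tests were run in Python. The fits were tested on simulated data. A gene is given by all its probes and, as 1 value, by its brightest detected probe; of the other lists, up to 4 genes each are named that passed in a main effect or in OVX+CUMS mice. The members and the gene lists (other myelin, myelin lipid, oligodendrocyte transcription factor, precursor, axon, neuron, astrocyte, microglia, endothelium, choroid plexus, striatum, upper and deep layer and peripheral myelin genes) were chosen with earlier results of these data known. Gene symbols came from RefSeq for 26762 of 28390 probes with a RefSeq transcript. Alternatives were other background corrections, scalings, filters and blocks, the deposited values and leaving out each mouse. Some genes of these lists are not reported here.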

Additional observations from a re-analysis of the deposited data

Results flagged for a closer look

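Of 60 groups of 6 mice (14 probes and the mean of the members, in 4 groups), 10 held a mouse far from the others by Dixon's test, where chance gives about 1 in 20. In 7 of them the mouse was control mouse 1, which was high: Cldn11 at 3.24 (next 2.45), Cnp at 3.22 (next 2.54), Mag at 2.83 (next 1.90), Mobp A_51_P291224 at 0.87 (next 0.01), Mobp A_55_P1958793 at -1.87 (next -3.02), Mobp A_55_P1958798 at 3.58 (next 2.36) and the mean of the members at 2.41 (next 1.72). These 7 share 1 mouse and move together. The others were OVX+CUMS mouse 1, high for Ermn A_55_P2060158 at 2.18 (next 1.61), control mouse 6, low for Mbp A_55_P1992160 at -0.79 (next -0.45), and CUMS mouse 6, low for Mobp A_51_P291224 at -0.33 (next -0.10).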

How the results depend on the processing

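The count of called member probes was 1 in each main effect and 2 in each comparison with control mice. Normexp background correction gave 2 for OVX, 2 for CUMS and 1 for OVX+CUMS minus control. Quantile normalization gave 0 for OVX and 1 for CUMS minus control. The 75th percentile over detected probes gave 0 for OVX, 0 for CUMS, 1 for CUMS minus control and 1 for OVX minus control. A spike-in shift, which moved the median of all probes in the CUMS effect from 0.01 to -0.12, gave 0 for OVX, 3 (all lower) for CUMS, 0 for CUMS minus control, 1 (lower) for OVX minus control and 3 (all lower) for OVX+CUMS minus control. Without the detection filter the counts were 0 for OVX, 0 for CUMS, 1 in each comparison with control mice and 4 within slide 2 (0 with the filter). The deposited values gave 2 for CUMS and no moderation of the spread gave 0. With each gene as the mean of its probes 0 were called for CUMS, 0 for CUMS minus control and 1 for OVX+CUMS minus control. The interaction had 0 under every alternative run.

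With the slide as a block 0 members were called in any comparison, and of the differences called without the block 4 changed sign: Mbp A_55_P1992160 to -0.18 (OVX minus control) and -0.12 (OVX+CUMS minus control), Ermn A_55_P2136752 to 0.040 (OVX minus control) and Mog to 0.068 (OVX+CUMS minus control). Of all member differences, called or not, 2 of 14 changed sign for CUMS, 5 for OVX, 3 for the interaction, 7 for CUMS minus control, 4 for OVX minus control and 6 for OVX+CUMS minus control. The causes were not tested. All 14 probes were detected on all 24 mPFC arrays. The dimmest, Mobp A_55_P1958793, had processed signals of 43.8 to 189 there, and OVX+CUMS mice 4 and 6 (43.8 and 46.3) were under the 50 of the filter. The replicate block gave 2 called members for OVX and 2 for CUMS and changed no other count of called members. The labels do not say that same-numbered mice of different groups are pairs. Their r over all detected probes was -0.23 to 0.39, with 16 of 36 over 0.1. Mice of unlike number were not compared, so these values cannot decide whether the numbers pair the mice.

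Leaving out each mouse gave 1 to 2 calls for OVX, 0 to 2 for CUMS, 1 to 2 for CUMS minus control, 1 to 3 for OVX minus control, 1 to 3 for OVX+CUMS minus control and 0 within slide 2. Mbp A_55_P1992160 lost its call for CUMS in 18 of 24 such fits (adjusted p up to 0.086, limma) and for OVX minus control without control mouse 1, 3 or 6 or OVX mouse 1, 4 or 6 (up to 0.10). Over all probes, CUMS calls went from 1189 to 25 without the filter and 6042 with the spike-in shift, interaction calls from 1273 to 1, 0, 716 (no moderation) and 618 (replicate block), and slide 2 calls from 12 to 6008 (no filter), 191 (normexp), 4 (spike-in shift) and 0 (no moderation). OVX calls fell from 8751 to 5218, and OVX minus control calls from 9509 to 4243, with the spike-in shift, and CUMS minus control calls from 4796 to 2648 without the filter. Leaving out each mouse gave 1 (control mouse 1) to 3853 (CUMS mouse 1) interaction calls and 2404 (CUMS mouse 6) to 7518 (CUMS mouse 1) CUMS minus control calls over all probes, and up to 24 (OVX mouse 2) within slide 2, where the lowest was 0.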
